A study of Homo sapiens with 20 samples.

Results

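The human translation initiation factors (eIF) and elongation factors (eEF) were taken as every gene symbol of the count table that begins with EIF or EEF and a digit. Symbols that begin with EIF2AK, EIF4EBP, EIF4ENIF, EEF1AKMT or EEF2K, and EIF1AY, were left out. The rule gave 55 of 17113 genes, by name alone. It also took EEF1AKNMT, a methyltransferase that modifies eEF1A, which is described apart from the factors proper. RNA was sequenced from the extracellular vesicles (membrane particles shed into the medium) and from the cells of SW480, LS1034, HCT 116, LoVo, HT-29, LS123, COLO-201, WiDr, LS513 and SNU-C1. These are 10 established human colorectal cancer lines, labelled wild type and untreated and grown in medium with fetal bovine serum, with 1 vesicle and 1 cell library each. The series asks whether the vesicle transcriptome mirrors that of its cells of origin. Vesicle RNA was isolated with an exosome kit, amplified by SMART-Seq v4 from low input and tagmented by Nextera XT, and cell RNA was made into stranded libraries after ribosomal RNA depletion. Compartment and kit coincide in every line and cannot be told apart.

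Translation starts when eIF4E binds the cap of an mRNA and eIF4G, a large scaffold, joins it to the helicase eIF4A and to eIF3, the many-subunit factor on the small ribosomal subunit. eIF2 brings the initiator tRNA, eIF2B recharges eIF2 with GTP, eIF1 and eIF1A keep start codon selection accurate, and eIF5 and eIF5B complete the joining of the subunits. During elongation eEF1A delivers aminoacyl-tRNAs, the eEF1B complex (EEF1B2, EEF1D, EEF1G) recharges eEF1A, and eEF2 moves the ribosome along. The mRNAs of several elongation factors and some eIF3 subunits are known as TOP mRNAs, which begin with a C and a run of pyrimidines and are translated under control of the kinase mTOR.

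The start sites of the members on which the results turn are printed because that pyrimidine run is the known feature that sets many of these mRNAs apart. Each is 30 bases in RefSeq GRCh38.p14, 15 before the annotated start and 15 from it on, 5′ to 3′ on the gene's strand. Capitals mark a C at the annotated start with the unbroken run of C or T after it, counted where at least 4 such bases follow, and no other motif was searched for. The first group holds elongation factors, eIF3 subunits and the eIF4A cofactor EIF4B.
EEF1A1 (chr6:73521018-73521047, minus strand): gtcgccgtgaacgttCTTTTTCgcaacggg
EEF1B2 (chr2:206159880-206159909, plus strand): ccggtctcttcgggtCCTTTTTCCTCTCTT
EEF2 (chr19:3985449-3985478, minus strand): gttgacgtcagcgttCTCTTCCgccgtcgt
EIF3F (chr11:7987322-7987351, plus strand): ttccgcttccgcctcCTTCTTTCTCgacaa
EIF3K (chr19:38619173-38619202, plus strand): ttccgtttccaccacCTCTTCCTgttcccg
EIF4B (chr12:53006441-53006470, plus strand): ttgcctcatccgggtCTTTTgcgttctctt

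The next members have no such run at this start and stand at the ends of the range of vesicle over cell differences below.
EIF4G1 (chr3:184315149-184315178, plus strand): cctccgggccgaccctcacttgcctgaaac
EIF4G2 (chr11:10807982-10808011, minus strand): gaggttgtcggaagcacttccctaacttgc
EIF5B (chr2:99337374-99337403, plus strand): gcgcactgagaactcacaccatatgtgtcc
EIF3B (chr7:2354812-2354841, plus strand): ccccgtcgcacgcacatggctgggctgtag
EIF4H (chr7:74174341-74174370, plus strand): ccttcctcgctcaccctggttcctctcgga

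A start was found for 46 of the 55 members, and 13 of them held the run at an annotated start, against 911 of 13514 genes in the table as a whole (6.74%). EEF1B2 has a further annotated start without the run, and EIF4G1 and EIF4G2 have further ones that also lack it. No start was found for EEF1A2, EEF1D, EIF2S2, EIF3A, EIF3CL, EIF3E, EIF3G, EIF3H and EIF3L.

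Vesicle libraries held 1.75 to 24.4 M counts and cell libraries 24.8 to 37.4 M. From genes silent in all cells, an even background was estimated at 1.78 to 44.5% of vesicle counts and 0.0302 to 0.154% of cell counts. It was higher, 16.7% or more, in the vesicle libraries of LoVo, LS1034, SNU-C1, WiDr and LS123, and lower, 6.36% or less, in those of COLO-201, HT-29, LS513, HCT 116 and SW480. Of the counts of the members themselves, the estimate gave 0.220 to 16.4% in vesicles. Summed markers of colorectal epithelium had a median of 8003 CPM (counts scaled to library size) in vesicles and 14269 CPM in cells, with all 12 measured. Summed markers of leukocytes (110 against 19.0 CPM), of fibroblasts and endothelium (138 against 2.79 CPM), of erythroid cells and platelets (29.5 against 1.05 CPM) and of hepatocytes and serum (107 against 11.2 CPM) were higher in vesicles by their medians. The first 3 of these lists had 5 of 6 genes measured. Ranges overlapped for all but fibroblasts and endothelium. Leukocyte markers had 13.0 to 999 CPM in vesicles and 0.182 to 2734 CPM in cells. Those of hepatocytes and serum had 11.3 to 686 CPM in vesicles and 0.160 to 763 CPM in cells. In the cell libraries HT-29 resembled WiDr (Pearson r of their deviations from the mean over 10240 genes 0.768) and HCT 116 resembled LS123 (r = 0.585), with 0.284 for the next pair. The 10 lines, treated as independent below, may therefore not be so.

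The counts of 4 members are uncertain. More than 90% of the 50-base windows of their transcripts occur in another annotated gene: 100% for EIF4A1, 98.8% for EIF3CL, 98.7% for EEF1G and 94.4% for EIF3C. EIF3C and EIF3CL are near-identical copies on chromosome 16, while the annotated genes AC016876.2 and AP002990.1 overlap EIF4A1 on chromosome 17 and EEF1G on chromosome 11. EEF1G, a subunit of eEF1B, had 6 counts in all 10 vesicle libraries together and 20 in all 10 cell libraries, and was not tested. EIF4A1, the main eIF4A helicase, had a median of 2.38 RPKM (reads per kilobase of coding transcript and library size) in vesicles and 1.57 RPKM in cells, against 73.7 RPKM in vesicles and 87.0 RPKM in cells for its paralogue EIF4A2. Its 347 vesicle counts stand beside 342 expected from the background alone. Part of EEF1A1, EEF1B2, EIF4B and EIF4E (52.8 to 66.1% of windows) is also shared with pseudogenes or overlapping genes, so those counts are uncertain to that extent.

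**Figure D1:**
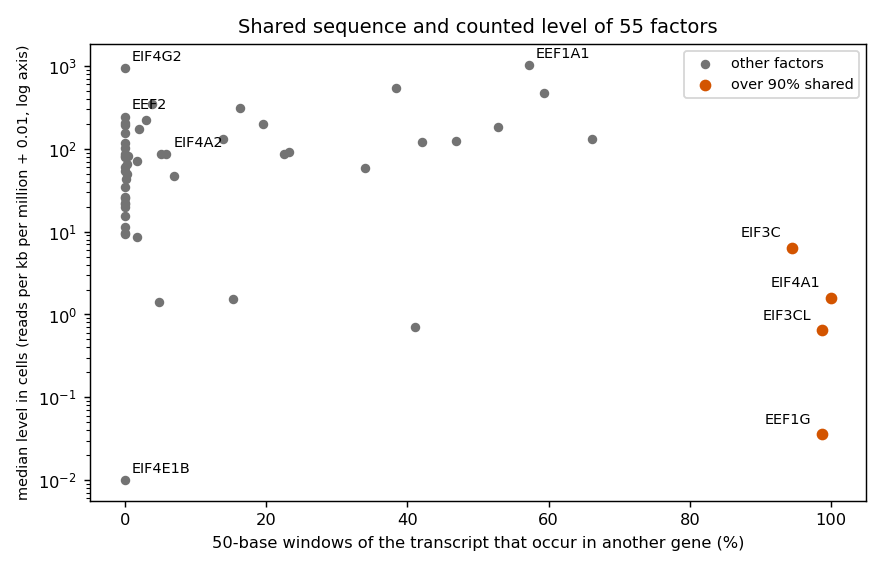
Each point is 1 of the 55 members, with the percent of its transcript's 50-base windows that also occur in another gene on the x axis and its median level over the 10 cell libraries on a log y axis. The 4 members in orange, above 90% shared, lie at 6.42 RPKM or lower, and EIF4E1B, with 9 cell counts in all, lies lowest.

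As a group the factors took a part of the counts whose ranges overlapped between the compartments. They made up 0.795 to 2.68% of counts in the vesicle libraries, with a median of 1.78%, and 1.26 to 1.93% in the cell libraries, with a median of 1.48%. The share was higher in vesicles in 7 of the 10 lines, among them all 5 of lower background. It was lower in SNU-C1 (0.795% in vesicles, 1.33% in cells), WiDr (1.30% and 1.51%) and LS123 (1.22% and 1.58%). The vesicle libraries of these lines had the highest background, 26.5 to 44.5% of their counts. These shares are of all counts, background included, and the part that background plays was not tested. The factor counts were also divided differently, and this division does not depend on how libraries are scaled to each other.

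Elongation factors held a median of 28.5% of all factor counts in vesicles (18.6 to 55.5%) and 24.2% in cells (10.3 to 38.7%), higher in vesicles in 10 of 10 lines. Most of this was EEF1A1, with 12.5 to 43.8% and a median of 19.4% in vesicles, against 5.94 to 26.0% and a median of 14.9% in cells. The eEF1B subunits, of which EEF1G is of uncertain counting, held a median of 6.28% in vesicles (4.55 to 8.08%) and 3.42% in cells (2.51 to 4.57%), again higher in 10 of 10 lines, with ranges that meet only at their ends. EEF2 went the other way, with a median of 3.003% in vesicles and 4.69% in cells, and was lower in vesicles in 10 of 10 lines.

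The scaffold eIF4G stood out among the initiation factors. Its members held 4.85 to 14.0% of factor counts in vesicles, with a median of 8.53%, and 12.5 to 39.1% in cells, with a median of 19.0%. Most of this was EIF4G2, a relative of eIF4G that lacks the eIF4E binding site, with a median of 6.67% in vesicles and 15.8% in cells. Both shares were lower in vesicles in 10 of 10 lines. The helicase group eIF4A, eIF4B and eIF4H was also lower in all 10 lines, with medians of 4.42% in vesicles and 6.15% in cells. Its main helicase EIF4A1 is of uncertain counting and adds few counts, so this is in the main the share of the other members. The eIF3 subunits, of which EIF3C and EIF3CL are of uncertain counting, took a median of 22.1% in vesicles and 22.5% in cells, higher in 5 lines and lower in 5. After subtraction of the background the shares of eEF1B (6.30% in vesicles, 3.42% in cells) and eIF4G (8.51% in vesicles, 19.0% in cells) were nearly as before.

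**Figure D2:**
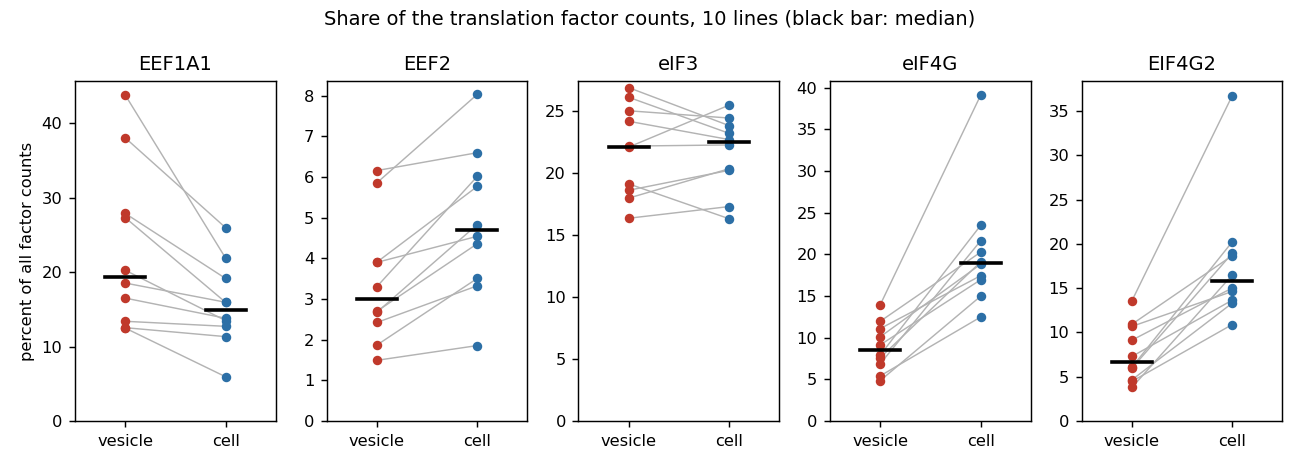
Percent of all factor counts of a library (y axis) taken by EEF1A1, EEF2, eIF3, eIF4G and EIF4G2 in vesicles (left in each panel) and cells, with a grey line joining the libraries of each of 10 lines and a black bar at the median. Every line has the higher value in vesicles on the EEF1A1 panel and the lower value in vesicles on the EEF2 panel and both eIF4G panels, while the joining lines cross for eIF3.

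Ratios within a library, chosen after these values were seen and given without a test, put sizes on this. The log2 ratio of EEF1A1 to EEF2 counts was 1.78 to 3.34 in vesicles, with a median of 2.81, and 1.20 to 2.02 in cells, with a median of 1.71. Vesicle minus cell was positive in 10 of 10 lines, with a mean of 1.06 ± 0.31 (SD, n = 10). The same difference was 1.34 ± 0.33 for EEF1B2 to EEF2 and 1.61 ± 0.49 for EEF1D to EEF2, positive in 10 of 10 lines for both. For EIF4G2 to EEF1A1 it was -1.79 ± 0.69, negative in 10 of 10 lines. With the background subtracted the EEF1A1 to EEF2 difference was 1.09 ± 0.29. EEF1A1, EEF1B2, EEF1D and EEF2 all belong to the TOP mRNAs, so members of that class stood on opposite sides of the ratio.

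Set against all genes by edgeR, with libraries scaled by TMM and each line as a block, the 54 members tested had a median log2 fold change of -0.23, vesicle over cell. The median of all 15130 genes tested was 0.01. By the adjusted p, 3 members rose in vesicles (EEF1D, EIF5B and EIF4E1B, which passed the filter only through its vesicle libraries) and 11 fell (EIF4G1, EIF4G2, EIF4G3, EIF3B, EIF3C, EIF4H, EIF4A3, EIF2S1, EIF1AD, EEF2 and EEF1AKNMT). Of all genes tested, 28.6% rose and 28.1% fell. The closer background is the 10064 genes present in every cell library at the filter limit of 0.4073 CPM or above, of which 6.92% rose and 42.1% fell, with a median of -0.51. Of the 51 members at that limit 2 rose and 11 fell, with a median of -0.24.

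**Figure D3:**
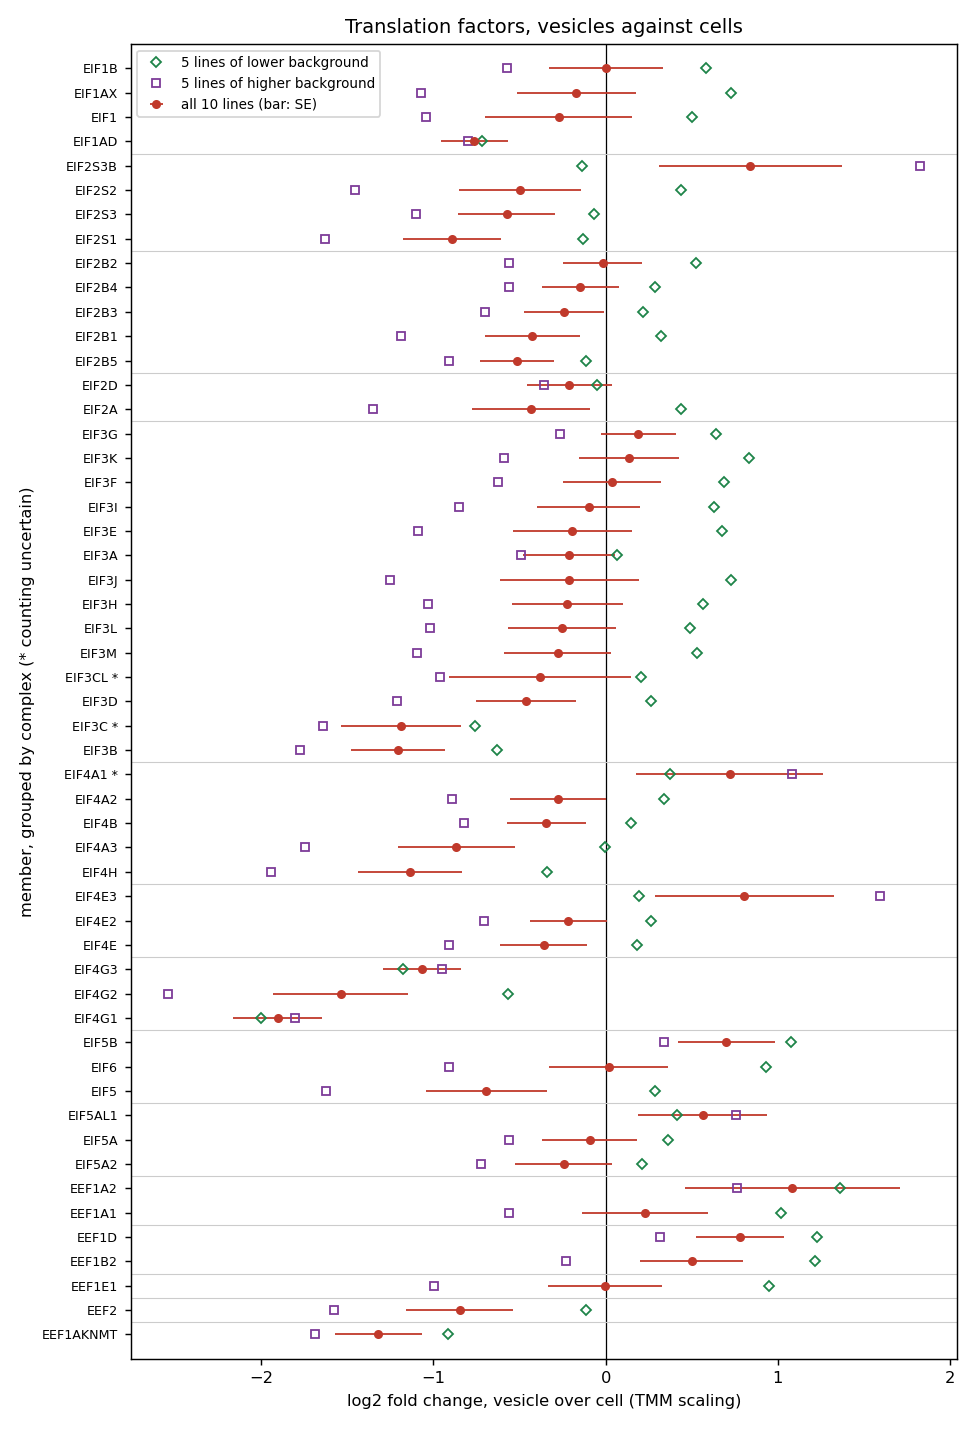
Log2 fold change, vesicle over cell (x axis), of 53 tested members grouped by complex, without EIF4E1B, whose 9 cell counts give no usable fold. Red points with SE bars are all 10 lines, green diamonds the 5 lines of lower background and purple squares the 5 of higher background; eIF4G lies left of 0 in all 3 sets, and many other members have their green and purple symbols on opposite sides of 0.

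EIF4G1, the main eIF4G scaffold, showed the firmest difference. It had 46.2 to 153 CPM in vesicles, with a median of 97.5, and 174 to 672 CPM in cells, with a median of 311, so that the ranges do not overlap. Its log2 fold change was -1.90 (SE 0.26, adjusted p = 2.57e-05), and it was lower in vesicles in 10 of 10 lines. It was called lower under all 20 alternatives tried, between -2.05 and -1.15. EIF4G3, a further paralogue, had 7.84 to 60.9 CPM in vesicles (median 40.7) and 36.9 to 147 CPM in cells (median 66.4). It fell by 1.07 on the log2 scale (SE 0.23, adjusted p = 0.00110), lower in 10 of 10 lines. That call was lost with background subtraction (-0.75, adjusted p = 0.0631), upper-quartile scaling (-0.32) and plain library size (-0.59).

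EIF4G2 had the highest level per length of the initiation factors in cells, a median of 944 RPKM, and 381 RPKM in vesicles. Its CPM ran from 164 to 3120 in vesicles, with a median of 1037, and from 2246 to 5670 in cells, with a median of 2571. Vesicles of SNU-C1 were lowest and those of COLO-201 highest, and COLO-201 cells stood above all other cells. EIF4G2 fell by 1.54 (SE 0.39, adjusted p = 0.00392), lower in 9 of 10 lines. Without LoVo the value was -1.14 (adjusted p = 0.0790), and with background subtraction -0.75 (adjusted p = 0.0509). It was -0.57 (adjusted p = 0.0519) in the lines of lower background and -0.80 (adjusted p = 0.0558) with upper-quartile scaling, and none of these 4 was called.

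The helicase group was mixed. EIF4H, a cofactor of eIF4A, had 42.6 to 440 CPM in vesicles (median 174) and 243 to 476 CPM in cells (median 355), and fell by 1.13 (SE 0.30, adjusted p = 0.00516), lower in 10 of 10 lines. EIF4A3, the helicase of the exon junction complex, fell by 0.87 (SE 0.34, adjusted p = 0.0402), lower in 6 of 10 lines. EIF4A2 and EIF4B did not pass, at -0.28 (SE 0.28) and -0.34 (SE 0.23). The EIF4H call was lost without LoVo (-0.73, adjusted p = 0.146), with the background subtracted (-0.40), with upper-quartile scaling (-0.39) and in the lines of lower background (-0.34). The EIF4A3 call was lost without LoVo, LS1034, SNU-C1, LS513, WiDr or LS123 (-0.85 to -0.53). It was -0.20 with the background subtracted, -0.12 with upper-quartile scaling and -0.0040 in the lines of lower background. The DESeq2 test (-0.49, adjusted p = 0.139) did not call it either, and 6 of the 20 alternatives did.

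The cap-binding proteins EIF4E and EIF4E2, a weak cap binder that represses translation, were at -0.36 (SE 0.25) and -0.22 (SE 0.22) and did not pass. EIF4E1B, a form of eIF4E known from oocytes, had 594 counts over all vesicle libraries and 9 over all cell libraries, 6 of these in LS123. Its vesicle counts, 26 to 102 per library, were above those of cells in 10 of 10 lines, and its test is not read because it entered through the vesicle libraries alone. The background estimate expected 342 of the 594, and with it subtracted the gene was no longer tested.

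Most eIF3 subunits did not pass the test in either direction. Of 14, 0 rose and 2 fell, with 0 and 2 at an unadjusted p under 0.05, and a median of -0.22. The DESeq2 test called 1 that rose and 2 that fell, with no share of all genes to set beside them. EIF3B, a scaffold subunit of eIF3, had 123 to 608 CPM in vesicles (median 213) and 333 to 995 CPM in cells (median 583). It fell by 1.20 (SE 0.27, adjusted p = 0.00165), lower in 10 of 10 lines, and the call was lost without LoVo (-0.87, adjusted p = 0.0620), with the background subtracted (-0.49), with upper-quartile scaling (-0.46) and in the lines of lower background (-0.63). EIF3C, of uncertain counting, fell by 1.19 (SE 0.35, adjusted p = 0.00910), also lost without LoVo (-0.75, adjusted p = 0.124), among 6 of the 20 alternatives; after subtraction it was at 0 in 4 of 10 vesicle libraries. EIF3E had the highest level per length of the eIF3 subunits in cells, a median of 313 RPKM, and 297 RPKM in vesicles. Its log2 fold change was -0.19 (SE 0.35). EIF3K at 0.13 (SE 0.29) and EIF3G at 0.19 (SE 0.22) stood at the upper end of the complex, and EIF3G was the member that rose by the DESeq2 test (0.56, adjusted p = 0.0107).

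Among the factors of the initiator tRNA, EIF2S1, the eIF2 subunit whose phosphorylation slows translation under stress, fell by 0.89 (SE 0.29, adjusted p = 0.0151). It had 62.3 to 533 CPM in vesicles (median 154) and 162 to 583 CPM in cells (median 370), lower in 8 of 10 lines. Without LoVo it stood at -0.43 (adjusted p = 0.345), and at -0.13 both with the background subtracted and in the lines of lower background. The call was also lost with DESeq2 size factors (-0.51), the DESeq2 test (-0.51), plain library size (-0.41), upper-quartile scaling (-0.14), no block for the line (-0.67) and 1 line of each alike pair (-0.67). EIF2S2 and EIF2S3, the other eIF2 subunits, were at -0.50 (SE 0.36) and -0.57 (SE 0.28) and did not pass. Of the 5 eIF2B subunits, 0 rose and 0 fell by the adjusted p of edgeR, with 0 and 1 at an unadjusted p under 0.05, and a range of -0.51 to -0.02. The DESeq2 test also called 0 of them, with 0 at an unadjusted p under 0.05.

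EIF1, which guards start codon selection, was at -0.27 (SE 0.43), but its vesicle libraries differed widely. COLO-201 vesicles had 5502 CPM, against 760 CPM in COLO-201 cells, and SNU-C1 vesicles 105 CPM, against 825 CPM in SNU-C1 cells. The vesicle minus cell difference on the log2 scale was 2.85 in COLO-201 and -2.97 in SNU-C1, and between -1.06 and 0.43 in the other lines. In COLO-201 vesicles the eIF1 group made up 26.7% of all factor counts, against at most 10.7% in any cell library. EIF1AD, a nuclear relative of eIF1A, fell by 0.76 (SE 0.20, adjusted p = 0.00421), lower in 10 of 10 lines, and the call was lost without LoVo (-0.42, adjusted p = 0.154), with the background subtracted (-0.28) and by the DESeq2 test (-0.39), among 7 of the 20 alternatives.

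EIF5B, the GTPase that joins the ribosomal subunits, rose. It had 86.0 to 594 CPM in vesicles, with a median of 187, and 91.9 to 179 CPM in cells, with a median of 125, and was higher in 7 of 10 lines. The log2 fold change was 0.70 (SE 0.28, adjusted p = 0.0458). The call was lost when COLO-201, LS1034, HT-29, WiDr, HCT 116 or SW480 was left out (0.57 to 0.72), in the lines of higher background (0.34) and with no filter on low counts (0.67). EIF5 and EIF6, which keeps the ribosomal subunits apart, were at -0.69 (SE 0.35) and 0.02 (SE 0.34) and did not pass.

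EEF1A1 had the highest level per length of all members in cells, a median of 1039 RPKM, and 1382 RPKM in vesicles. Its CPM was 583 to 11997 in vesicles, with a median of 3184, and 916 to 5971 in cells, with a median of 2392. Higher in 6 lines and lower in 4, it did not pass the test (log2 fold change 0.23, SE 0.36). EEF1B2, the exchange factor of eEF1A, had 168 to 1156 CPM in vesicles (median 703) and 221 to 824 CPM in cells (median 398). Higher in 7 lines, it did not pass either in edgeR with TMM scaling (0.50, SE 0.30, adjusted p = 0.168). The DESeq2 test called EEF1B2 higher (0.87, adjusted p = 0.00124), as did edgeR with DESeq2 size factors (0.87), plain library size (0.96) and upper-quartile scaling (1.24). EEF1A1 was called higher with plain library size (0.69) and upper-quartile scaling (0.96). EEF1E1, a scaffold protein of tRNA synthetases that bears the name of the complex, was at -0.0023 (SE 0.33).

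EEF1D, a further exchange subunit, had 125 to 425 CPM in vesicles, with a median of 368, and 127 to 225 CPM in cells, with a median of 190. It was higher in 8 of 10 lines, all but SNU-C1 and LS123, and rose by 0.78 (SE 0.26, adjusted p = 0.0177). Of the 20 alternatives 19 called EEF1D higher, and the call was lost in the lines of higher background (0.32, adjusted p = 0.478). EEF2 had 170 to 1687 CPM in vesicles (median 429) and 286 to 1847 CPM in cells (median 774), lower in 7 of 10 lines. It fell by 0.85 (SE 0.31, adjusted p = 0.0308), and the call was lost without LoVo, LS1034, SNU-C1, WiDr or LS123 (-0.84 to -0.48). It was -0.064 with the background subtracted, -0.11 in the lines of lower background and with upper-quartile scaling, and -0.48 (adjusted p = 0.101) by the DESeq2 test, and 7 of the 20 alternatives called it lower. EEF1AKNMT, the methyltransferase, had 17.2 to 59.8 CPM in vesicles (median 25.0) and 46.8 to 106 CPM in cells (median 66.8), and fell by 1.32 (SE 0.25, adjusted p = 4.55e-04). That call was lost in the lines of lower background (-0.92, adjusted p = 0.0963) and held in the other 19 alternatives.

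Across 49 members of certain counting the Spearman correlation of coding transcript length with the log2 fold change was -0.31. The members share the same 20 libraries, and the part that transcript length plays was not tested.

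The changes differed between lines of lower and higher background. In the 5 lines of lower background, 11 members rose and 2 fell, against 19.5% and 19.0% of all genes tested. EIF4E1B, whose test is not read, is among the 11. Of the 51 members at the filter limit in every cell library, 10 rose and 2 fell. Among the other genes at that limit with a known start, 120 of 642 with the pyrimidine run and 644 of 7622 without it rose. In the same 2 sets 138 and 2158 fell. The members' median was 0.33, and that of the genes present in every cell library was -0.38. In the 5 lines of higher background, 2 rose and 28 fell, against 34.0% and 25.5% of all genes. The 2 were EIF4E1B and EIF2S3B. Over all 10 vesicle libraries, not these 5 alone, EIF2S3B had 160 counts beside 134 expected from the background. Of the 51 members at the limit, 1 rose and 28 fell. The members' median was -0.91, and that of the genes present in every cell library was -0.71. Of the other such genes with a known start, 220 of 642 with the pyrimidine run and 3273 of 7622 without it fell. With the expected background subtracted over all 10 lines, 9 rose and 2 fell, against 15.6% and 18.9% of genes, with a median of 0.40. The genes present in every cell library then had a median of -0.30. Among those with a known start, members left out, 136 of 642 with the run and 800 of 7620 tested without it rose, and 108 and 1849 fell. The 9 were EEF1A1 (1.03, SE 0.28), EEF1B2 (1.30, SE 0.22), EEF1D (1.501, SE 0.22), EIF5B (1.46, SE 0.23), EIF3G (0.89, SE 0.19), EIF3K (0.89, SE 0.23), EIF3I (0.69, SE 0.22), EIF6 (0.79, SE 0.26) and EIF5A (0.70, SE 0.23). EIF4G1 (-1.28, SE 0.24) and EEF1AKNMT (-0.93, SE 0.28) were the 2 that fell.

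The difference between the line classes was tested in the fit over all libraries. For 19 of the 54 members the vesicle over cell change was lower in the lines of higher background, and for 0 it was higher, with 34 and 1 at an unadjusted p under 0.05. Of all genes tested, 6.13% passed in the negative direction. The largest of the 19 were EIF4G2 (-1.93, SE 0.46, adjusted p = 0.0401), EEF1E1 (-1.90, SE 0.42), EIF5 (-1.87, SE 0.39) and EIF2S2 (-1.85, SE 0.44). With DESeq2 size factors in the same edgeR test, or with the background subtracted, 0 members passed, with 30 and 23 negative ones at an unadjusted p under 0.05. EIF4G1 did not pass, at 0.24 (SE 0.45), nor did EIF4G3, at 0.26 (SE 0.43), and both were lower in vesicles in both classes. EIF4G1 stood at -2.001 (SE 0.34) in the lines of lower background and -1.80 (SE 0.32) in those of higher background. Depth differed between these lines too, and its part was not tested.

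EEF1A1 and EEF2 show how far the classes lay apart. The vesicle minus cell difference of EEF1A1 was 0.20 to 1.65 in the lines of lower background and -1.80 to 0.21 in the others. For EEF2 it was -0.85 to 0.45 in the lines of lower background and -2.10 to -0.90 in the others, so that these do not overlap. Both moved down together, and their ratio stayed higher in vesicles in all 10 lines.

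**Figure D4:**
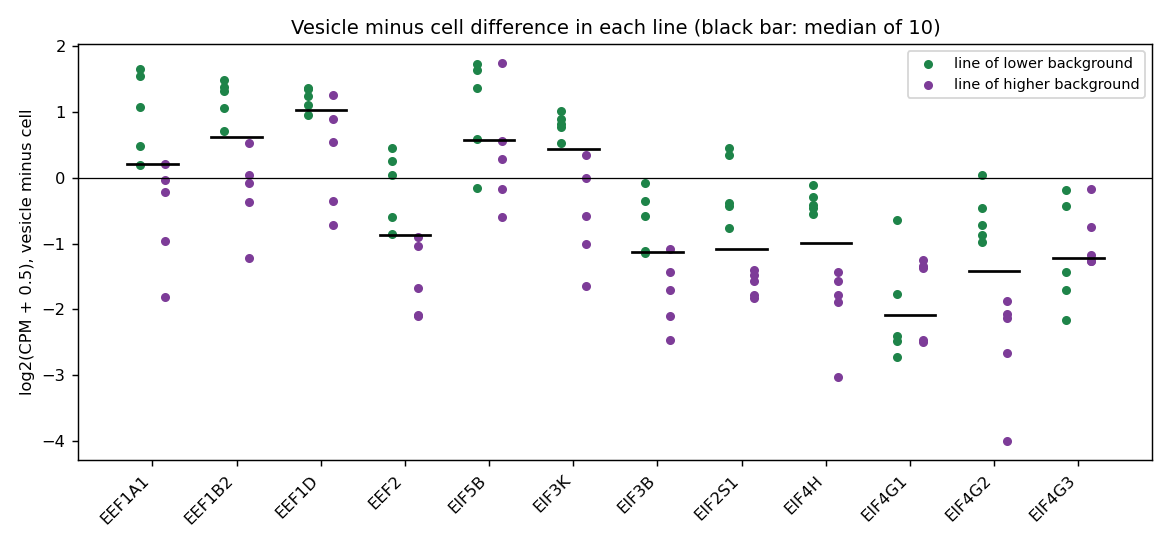
Difference in log2(CPM + 0.5), vesicle minus cell (y axis), of 12 members in each line, green for the 5 lines of lower background and purple for the 5 of higher background, with a black bar at the median of 10. EIF4G1 and EIF4G3 are below 0 in both classes, while EEF1B2, EEF2, EIF3K, EIF2S1, EIF4H and EIF4G2 have no overlap between the classes.

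Ratios of paralogues compare members within a library and need no scaling. Of 6 such ratios tested by exact sign-flip permutation over 10 lines (two-sided, adjusted over the 6), that of EIF4G1 to EIF4G3 passed. Its log2 value was 0.17 to 2.63 in vesicles, with a median of 1.41, and 1.44 to 3.47 in cells, with a median of 2.23. Vesicle minus cell was -0.83 (SE 0.26), negative in 10 of 10 lines, with p = 0.00195, the smallest that 10 lines allow, and adjusted p = 0.0117. After background subtraction it was -0.49 (adjusted p = 0.480 by the same exact permutation test), and in the 5 lines of lower background, where p cannot go below 0.0625, it was -0.81.

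The other ratios did not pass. EIF4G1 to EIF4G2 differed by -0.33 (SE 0.48), EIF4E to EIF4E2 by -0.15 (SE 0.21), EIF5A to EIF5A2 by 0.15 (SE 0.37) and EIF1 to EIF1B by -0.23 (SE 0.19). EIF4A1 to EIF4A2, where EIF4A1 is of uncertain counting, differed by 1.01 (SE 0.55, adjusted p = 0.305 by the exact permutation test). Without COLO-201 it was 1.41 (adjusted p = 0.0469), and after subtraction of the background EIF4A1 was at 0 in 6 of the 10 vesicle libraries, so that no ratio is read from those values. EEF1A1 to EEF1A2 was not tested because EEF1A2 had under 10 counts in LS513 cells.

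EEF1A2, EIF4E3, EIF5AL1 and EIF5A varied most between lines, with SDs over 1 of their log2 CPM across the cell libraries. EEF1A2, the form of eEF1A otherwise found in neurons and muscle, had an SD of 2.87. It had 3.08 to 121 CPM in vesicles, with a median of 31.5, and 0.262 to 243 CPM in cells, with a median of 18.7. With the background subtracted it was at 0 in the vesicles of LS513 (3.08 CPM before) and WiDr (7.64 CPM before). In cells LS123 (243 CPM), HCT 116 (97.1 CPM) and HT-29 (67.2 CPM) were highest, and LS513 and COLO-201 were lowest. In vesicles HCT 116 (121 CPM), HT-29 (94.1 CPM) and LS123 (63.0 CPM) held the top places, in another order. SNU-C1 departed most, with 40.4 CPM in vesicles and 1.31 CPM in cells.

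EIF4E3, an unusual cap-binding form of eIF4E, had an SD of 2.07 across cells. It had 3.51 to 69.4 CPM in vesicles (median 24.9) and 0.363 to 58.7 CPM in cells (median 14.1), highest in LS513 in both. SNU-C1 again departed most, with 24.7 CPM in vesicles and 0.363 CPM in cells. The vesicle library of SNU-C1 was the shallowest and had the highest background, and the part of both in these values was not tested.

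EIF5A, the hypusine-bearing factor that relieves stalled ribosomes, had an SD of 1.17 across cells. It had 78.5 to 1774 CPM in vesicles (median 654) and 132 to 1349 CPM in cells (median 688). LS1034, SNU-C1 and COLO-201 were the lowest lines in both compartments, and SW480 and HCT 116 were among the 3 highest in both. Its log2 fold change was -0.09 (SE 0.27). EIF5A2, its paralogue, was highest in LoVo cells (141 CPM) and in COLO-201 vesicles (109 CPM), and stood at -0.24 (SE 0.28). HT-29 and WiDr, alike in cells over all genes, had close cell levels of EIF5A (738 and 813 CPM) and EIF5A2 (18.7 and 21.3 CPM), but 67.2 and 8.28 CPM of EEF1A2.

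**Figure D5:**
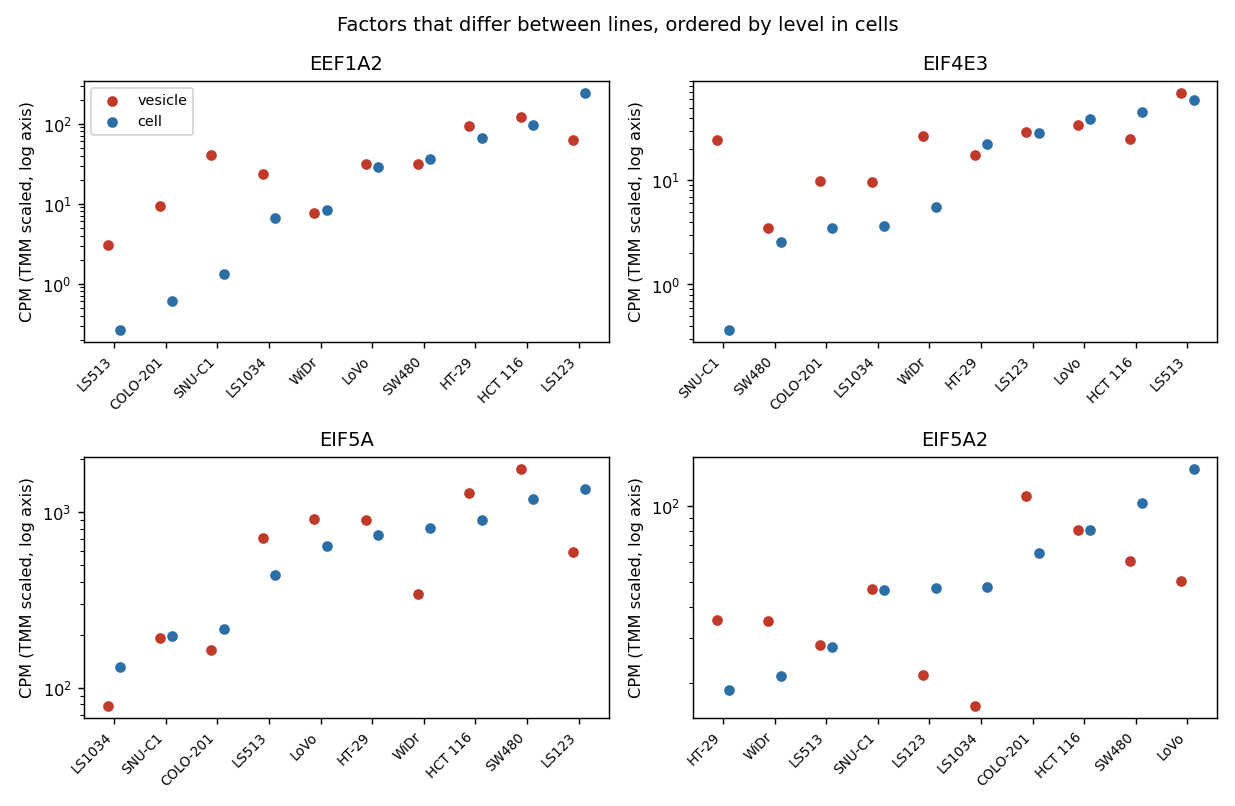
CPM (log axis) of EEF1A2, EIF4E3, EIF5A and EIF5A2 in the vesicles (red, left) and cells (blue) of each line, ordered by the level in cells. For EIF5A the same 3 lines, LS1034, SNU-C1 and COLO-201, are lowest in both, and for EEF1A2 and EIF4E3 the widest gap is that of SNU-C1.

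Members with and without the pyrimidine run at the start are set side by side here, and the difference between them was not tested. The 13 with the run had a median log2 fold change of -0.28, with 0 that rose and 1 that fell, and the 32 tested without it -0.24, with 2 that rose and 10 that fell. After background subtraction 3 rose and 0 fell with the run, with a median of 0.41, and 4 rose and 2 fell without it, with a median of 0.25. In the lines of lower background 4 rose and 0 fell with the run, and 5 rose and 2 fell without it. In those of higher background 1 rose and 7 fell with the run (median -0.82), and 1 rose and 17 fell without it (median -0.91). EIF4E1B, whose test is not read, is counted among the risers without the run in each of these fits except the subtracted one. In the lines of higher background it was the only one, and EIF2S3B was the only one with the run. Over all 10 vesicle libraries EIF2S3B had 160 counts beside 134 expected from the background. Among the other genes expressed in every cell library, the 642 with the run had a median of -0.24 and the 7622 without it -0.55. Of the 642, 56 rose and 210 fell, and of the 7622, 508 rose and 3298 fell. After subtraction 136 with the run rose and 108 fell (median 0.05), and 800 without it rose and 1849 fell (median -0.33). In the lines of lower background 120 of the 642 and 644 of the 7622 rose, and 138 and 2158 fell. In those of higher background 52 and 456 rose, and 220 and 3273 fell. Of 8 factors known as TOP mRNAs that could be tested, 1 rose (EEF1D) and 1 fell (EEF2) by edgeR over all 10 lines. After subtraction of the background 3 rose and 0 fell, and by the DESeq2 test 2 rose and 0 fell. In the lines of lower background 5 rose and 0 fell, and in those of higher background 0 rose and 4 fell (median -0.72). Of all genes tested, 15.6% rose and 18.9% fell after subtraction. In the lines of lower background 19.5% and 19.0% did so, and in those of higher background 34.0% and 25.5%. Of 7 other known TOP mRNAs, 0 passed over all 10 lines by edgeR, with 1 positive at an unadjusted p under 0.05 and 4 that rose by the DESeq2 test. By the DESeq2 test the median of all genes was 0.39. The share of all genes it called is not given here, so its counts in these lists are not read as a result. In edgeR 6 rose with the background subtracted, among them TPT1, the translationally controlled tumour protein, at 1.67 and NAP1L1, a histone chaperone, at 1.14. In the lines of lower background 6 of these 7 rose, and in those of higher background 0 rose and 1 fell (median -0.56).

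Genes that act on the factors were described from lists of the same pathway, to be read beside the 28.6% of all genes that rose and 28.1% that fell, and beside the 42.1% that fell among genes present in every cell library. Of 18 kinases, phosphatase subunits and binding proteins of the factors, 0 rose and 11 fell, with a median of -1.09. PPP1R15B, which directs the dephosphorylation of eIF2, fell by 3.09 (SE 0.25, adjusted p = 9.38e-07), and EIF2AK3, the eIF2 kinase of the endoplasmic reticulum, fell by 2.78 (SE 0.36, adjusted p = 1.69e-05). With the background subtracted 8 of the 18 fell and 1 rose. Of 8 partners at the poly(A) tail and cap 1 rose and 3 fell, among them DDX3X, a helicase (-2.70, SE 0.39), and NCBP1, the nuclear cap-binding protein (-1.83, SE 0.29). After subtraction 2 of these 8 rose and 2 fell.

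Of 7 termination and recycling genes tested 0 rose and 6 fell, HBS1L (-0.99, SE 0.23) and PELO (-0.90, SE 0.22), which rescue stalled ribosomes, among them. None of those 6 calls held with the background subtracted, where 0 of 7 passed by edgeR and 0 had an unadjusted p under 0.05. Of 12 enzymes that modify the factors, 0 passed by edgeR and 1 was negative at an unadjusted p under 0.05. By the DESeq2 test 2 rose, a count not read as a result because the share of all genes is not given. The smallest adjusted p-values of edgeR were those of EEF1AKMT2 (-0.47, SE 0.21) and EEF2KMT (0.42, SE 0.25). Of 9 mitochondrial translation factors 0 rose and 3 fell, including GFM1 (-2.07, SE 0.27) and GFM2 (-1.56, SE 0.26), the mitochondrial elongation factors G. After subtraction 1 of the 9 rose and 2 fell.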

How the data were processed

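The authors deposited raw counts of reads per gene symbol. STAR, featureCounts and hg19 are named per the submitters' processing notes, without versions, and the annotation and strand setting are not given in the sources used here. Members and lists were chosen with earlier results of these data known. Vesicle and cell libraries were compared in edgeR 4.0.16 (R 4.3.3) by the robust quasi-likelihood test, with TMM scaling, filterByExpr, cell line as block and Benjamini-Hochberg adjustment over all genes (threshold 0.05). The lines pair the libraries, per the labels. Printed CPM of members are TMM-scaled, and differences within a line are of log2(CPM + 0.5). The CPM of the marker lists and of the filter limit are scaled to library size alone. Each SE is the log2 fold change over the root of F. The background was a Poisson fit of 2075 non-member genes of 10 counts or fewer in each cell library, on GENCODE exonic length and GC content. The line classes come from this estimate, not from the members. Alternatives included DESeq2 1.42.0. The fits were tested on simulated data. A gene at 0 may have up to 3 counts, 0.136 to 0.915 TMM-scaled CPM in vesicles and 0.0956 to 0.157 in cells, which covers counting error alone, because the reads carry no molecular identifiers and can repeat a molecule. There is 1 library per line and compartment, so spread between cultures was not measured. Named members were all those called, the highest per length of a complex, the paralogue pairs, those that vary by line, and the 2 list genes of smallest adjusted p.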

Additional observations from a re-analysis of the deposited data

Results flagged for a closer look

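Among 147 groups of 10 values checked for a sample far from the others, 9 stood out, and chance gives about 1 in 20. On the log2 CPM scale these were LS513 for EIF4G3 in vesicles (3.06, lowest), LoVo for EIF4E2 in cells (5.88, lowest), COLO-201 for EIF4G2 in cells (12.47, highest), and LS123 in cells, lowest for EIF1AX (6.57), EIF3M (7.79) and EIF2S2 (6.81). In the vesicle minus cell difference they were HCT 116 for EIF2B4 (1.38, highest) and SNU-C1 for EIF4E3 (4.87, highest) and EIF3F (-1.99, lowest).

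For 19 members the vesicle over cell change differed between lines of higher and lower background by the test of that difference. Higher minus lower, the log2 values were -1.44 for EIF3I, -1.38 for EIF3K, -1.72 for EIF3E, -1.56 for EIF3H, -1.59 for EIF3M and -1.43 for EIF3D among eIF3 subunits. They were -1.75 for EIF2A, -1.47 for EIF2B1, -1.46 for EIF2S1, -1.85 for EIF2S2, -1.76 for EIF1AX, -1.87 for EIF5 and -1.80 for EIF6. They were -1.56 for EIF4H, -1.70 for EIF4A3 and -1.93 for EIF4G2, and -1.40 for EEF1B2, -1.90 for EEF1E1 and -1.42 for EEF2.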

How the results depend on the processing

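The counts moved with the scaling. The median of all genes was 0.38 with DESeq2 size factors, 0.48 with plain library size and 0.76 with upper-quartile scaling, against 0.01 with TMM. The members' median moved with it, at 0.14, 0.23 and 0.51 in that order, against -0.23 with TMM. Members that rose and fell, 3 and 11 with TMM, were 5 and 6 with DESeq2 size factors, 21 and 2 with upper-quartile scaling, 9 and 5 with plain library size, and 10 and 7 with the DESeq2 test. They were 9 and 2 with the background subtracted, 11 and 2 in the lines of lower background, and 2 and 28 in those of higher background. With no filter they were 2 and 12, without the pairing by line (no replicate block) 3 and 8, with 1 line of each alike pair 4 and 8, and without the 4 members of uncertain counting 3 and 10. EIF4E1B, whose test is not read, is counted among those that rose in each of these settings except the subtracted one. Leaving out each line in turn gave 2 to 4 and 3 to 13, with 3 that fell without LoVo, where the median of all genes was 0.35. The share of all genes called is given only for TMM over all 10 lines, the subtraction and the line classes. Counts of members and of list genes under the other settings are therefore not read as a result about the factors. The 19 class differences became 0 with DESeq2 size factors and 0 with the background subtracted.

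Members not called in all 10 lines were called with the opposite sign as follows. With upper-quartile scaling these were EIF3I (0.64), EIF2B3 (0.50), EIF2B4 (0.60), EIF4E2 (0.53), EIF2B2 (0.73) and EIF5A (0.65), and with plain library size EIF2B2 (0.45). With the background subtracted they were EIF3I (0.69) and EIF5A (0.70), in the lines of lower background EIF3I (0.63), EEF1E1 (0.95) and EIF3E (0.68), and in those of higher background EIF6 (-0.91). The EIF4G1 to EIF4G3 ratio was -0.49 with the background subtracted and -0.81 in the lines of lower background, neither past the threshold, and -0.92 to -0.67 with a line left out. The EIF4A1 to EIF4A2 ratio was 0.73 to 1.41 with a line left out. With the background subtracted it was -2.71, a value that rests on the added 0.5 counts because EIF4A1 was then at 0 in 6 of 10 vesicle libraries, and no direction is read from it. The EIF5A to EIF5A2 ratio was -0.055 to 0.39 with a line left out, negative without LoVo. The cause of these changes was not tested. Of the 14 called members, EIF4G1 kept its call under all 20 alternatives, and none of the 14 changed sign. EIF4E1B also kept its call in the 19 that could be fitted, but its test is not read. The depth of the shallow vesicle libraries limits members of low counts.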

Other observations

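Copies of factor genes elsewhere in the genome carried few reads. EIF2S3B, an intronless relative of the eIF2 subunit gene EIF2S3, had 160 counts over all vesicle libraries, beside 134 expected from the background, and 344 over all cell libraries. EIF5AL1, a relative of EIF5A, had 954 counts in vesicles, beside 220 expected from the background, and 3315 in cells. The log2 ratio of EIF5A to EIF5AL1 counts had a median of 5.12 in vesicles and 6.33 in cells. With the background subtracted these medians were 6.88 in vesicles and 6.37 in cells. EIF5AL1 shares 15.4% of its 50-base windows with other genes and EIF2S3B 41.0%.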
